A study of Caenorhabditis elegans with 48 samples.

Results

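First-stage (L1) larvae of the *Pgld-1::TIR1* strain that had starved for 132 h were compared with larvae of the same strain that had starved for 36 h. The libraries were chosen by their labels, 4 of strain CA1352 at 132 h with ethanol and 4 of it at 36 h, which makes 8 of the 48 libraries of the series. The series holds 4 strains, each sampled at 36 h and at 132 h with auxin or with ethanol, to ask whether transcription goes on days into starvation. CA1352 carries ieSi64, a transgene on chromosome II in which the *gld-1* promoter drives TIR1, the plant F-box protein that binds auxin, fused to mRuby in the germ line, followed by the *gld-1* 3′UTR and the Cbr-unc-119(+) marker. It has no degron-tagged AMA-1, and neither group here received auxin, so both groups are controls of the series. The 36 h flasks received no addition. The 132 h flasks had ethanol, the solvent of auxin, from 36 h on, a total of 96 h, so time in arrest and ethanol cannot be told apart in this comparison. Each library is 1 flask of embryos hatched without food, so it pools very many whole larvae. RNA was taken from whole larvae, and fewer cells of a type and less RNA per cell cannot be told apart.

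Larvae of C. elegans that hatch without food stop before they start postembryonic development, and they stay in L1 arrest until they feed. Arrested larvae live on stored fat, glycogen and trehalose, and insulin-like signaling through DAF-2 and the transcription factor DAF-16 is known to govern arrest and survival. The gut is the main site of digestion and fat storage, and the germ line at this stage is a pair of primordial germ cells that do not divide.

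The files hold raw counts of read pairs per gene. Each library held 8552028 to 14363877 counts on genes at 36 h and 5776631 to 11589994 at 132 h. Levels are given as CPM, the counts on a gene scaled to a fixed total of counts on protein-coding genes, and intervals drawn from these counts cover counting error alone. The 132 h library of replicate 4 stood apart from the other 3. Spike-ins, synthetic RNAs that the authors added in proportion to total RNA, made up 6.41% of its counts on genes and spike-ins, against 1.69% to 2.09% in the other 132 h libraries and 1.63% to 3.03% at 36 h (mean of 2.98% ± 2.29 at 132 h and 2.30% ± 0.651 at 36 h, SD, n = 4 each). The groups overlapped, and the difference of 0.677 percentage points was within the spread of the libraries (exact two-sided permutation test, p = 0.83). Ribosomal RNA made up 8.59% ± 2.73 (SD, n = 4) of these counts at 36 h and 4.43% ± 0.692 (SD, n = 4) at 132 h. The ranges, 5.47% to 11.7% and 3.81% to 5.37%, did not overlap, and the difference had p = 0.0286 in the exact two-sided permutation test, the smallest value that 4 libraries against 4 can give. RNA was selected by its poly-A tail, so this is the share left after selection, not the share in the larvae. It varied widely in the series, from 3.15% to 18.1% in *Peft-3::TIR1* at 132 h with ethanol.

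**Figure D1:**
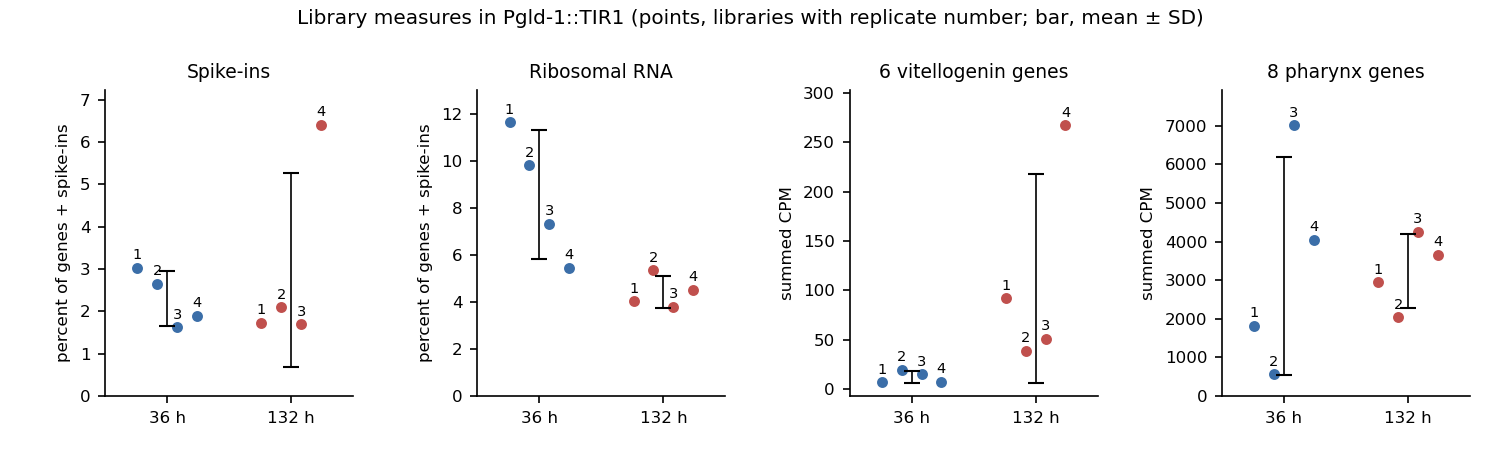
Measures of the 4 libraries at 36 h (blue) and the 4 at 132 h with ethanol (red), with the replicate number beside each point and mean ± SD as a bar; the y axes give the percent of counts on genes and spike-ins for the 2 left panels and summed CPM for the 2 right panels. Replicate 4 at 132 h had the highest spike-in share (6.41%) and the highest vitellogenin sum (267 CPM), and the pharynx sum spread from 574 to 7017 CPM at 36 h.

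Markers of the tissues of a larva were present at both times. The muscle myosin genes *myo-3* and *unc-54*, the pharyngeal myosin gene *myo-2*, the synaptic gene *snb-1* and the gut transcription factor gene *elt-2* were each above 20 CPM in every library. The other gut marker, *ges-1*, ranged from 19.7 to 36.0 CPM at 36 h and from 6.38 to 20.1 CPM at 132 h. While *elt-2* was higher at 132 h, *ges-1* was lower. The hypodermal factor gene *lin-26* ranged from 41.3 to 53.1 CPM at 36 h and from 56.5 to 74.7 CPM at 132 h, while the cuticle collagen gene *dpy-7* was at or below 2.33 CPM in all 8 libraries. The germ granule gene *pgl-1* ranged from 7.13 to 17.7 CPM and from 15.8 to 33.7 CPM. Genes of the early embryo were scarce, with end-1, end-3 and med-1 each at or below 1.55 CPM. Genes of the adult were low but not absent at 132 h. The 31 major sperm protein genes summed to 0 to 2.11 CPM at 36 h, to 2.23 to 3.53 CPM in replicates 1 to 3 at 132 h and to 16.04 CPM in replicate 4.

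Of the 15549 protein-coding genes tested, 2926 were higher at 132 h (18.8%) and 3023 were lower (19.4%) in edgeR's quasi-likelihood test with Benjamini-Hochberg adjustment and a threshold of 0.05, while 9600 were not called. Fold changes are given as fitted log2 values, in which 1 unit is a 2-fold change. More than 1 unit was reached by 1914 of the genes called higher and 1873 of those called lower. The values of 4584 genes (29.5%) were higher in every 132 h library than in every 36 h library, and those of 1603 genes (10.3%) were lower, before any test. The 10 most abundant genes took 12.5% to 13.4% of the protein-coding counts at 36 h and 8.88% to 10.1% at 132 h. The median gene was 0.34 higher at 132 h on the scale of log2(CPM + 1), and −0.01 in the fit, which scales each library to its upper quartile.

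The direction of the whole depended on the scaling. With libraries scaled to their spike-ins, which were added by total RNA, 3017 genes were higher and 880 lower, so that 77.4% of the calls were higher in place of 49.2%, and the median gene was 0.46 higher. Without the 132 h library of replicate 4, the same scaling gave 4607 higher and 624 lower, with a median of 0.76. A gene or list described as lower is therefore lower than the typical gene, and many of the smaller falls were not called under spike-in scaling. The median of a list under spike-in scaling is to be read beside the 0.46 of all tested genes. Its counts are to be read beside the 3017 higher and 880 lower of the 15549 genes tested. Rises and falls under spike-in scaling are changes per amount of total RNA, not per larva. The paper reports that the total RNA of a larva declined late in starvation. A gene that rose under this scaling therefore need not have risen per larva, which was not tested.

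**Figure D2:**
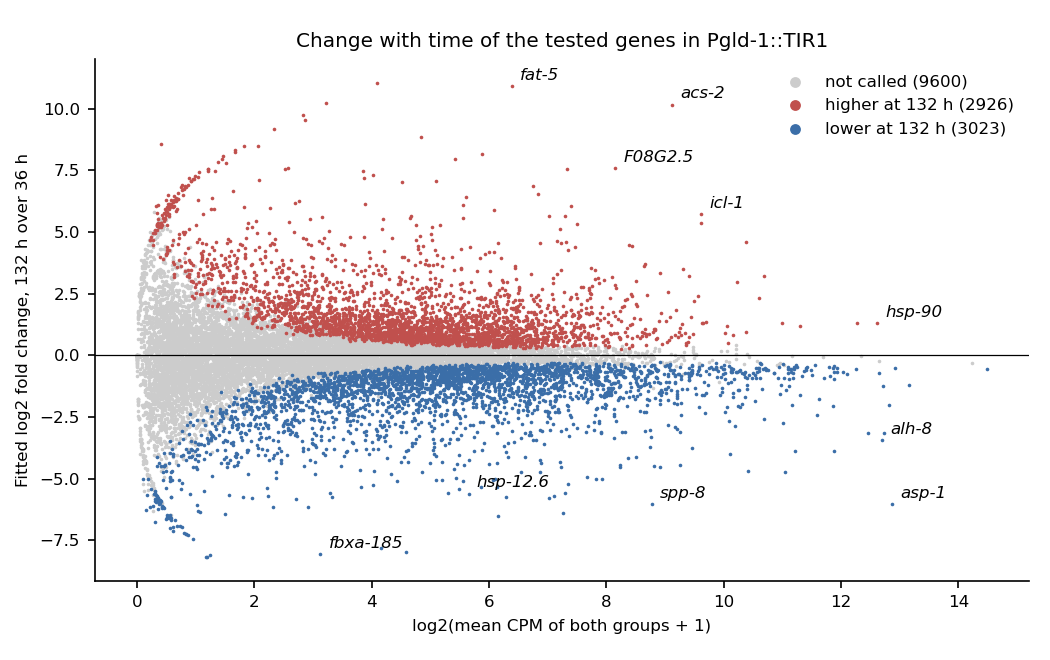
Fitted log2 fold change of each tested gene at 132 h over 36 h (y axis) against its mean level in both groups as log2(mean CPM + 1) (x axis), with genes called higher in red (2926), lower in blue (3023) and not called in gray (9600). Among the abundant genes, *acs-2* (10.16) and *icl-1* (5.72) lie far above 0, and *asp-1* (−6.05), *spp-8* (−6.04) and *alh-8* (−3.45) far below it.

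The largest rises were in genes that were nearly silent at 36 h, and *fat-5* and *acs-2*, genes of fatty acid metabolism, stood among them. *fat-5*, which encodes a desaturase of palmitic acid (chromosome V, 17725004 to 17726818, WBcel235), had 0, 0, 0 and 0.18 CPM at 36 h and 133, 238, 178 and 111 CPM at 132 h. The 36 h libraries together held 2 of its counts, so that the ratio of its level was 3126, with a 95% interval from 865 to 25819 from counting error. *acs-2*, which encodes an acyl-CoA synthetase that feeds fatty acids into mitochondrial β-oxidation (chromosome V, 15567394 to 15569897), had 0, 0, 0.543 and 1.71 CPM and then 1248, 1253, 1100.2 and 824 CPM. Every 132 h library was far above every 36 h library, and the fitted log2 change of *acs-2* was 10.16 ± 0.61 (SE, adjusted p = 2.0e-18, edgeR quasi-likelihood test). The groups of *fat-5* were as far apart, with a fitted change of 10.92 ± 0.81 (SE, adjusted p = 1.9e-15).

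The other genes among the 12 largest rises were *F20E11.17*, *F57G4.11*, *fbxa-30*, *pgph-1*, *sri-70*, *spp-27*, *Y37H2A.14*, *pgph-2*, *F08G2.5* and *F11D11.3*. *F20E11.17* had no count in any 36 h library and 24.3, 55.6, 27.3 and 20.95 CPM at 132 h, which is at least 99.6-fold higher, taking 3 counts in each 36 h library as the floor. The same bound was 51.6-fold for *F57G4.11*, 39.3-fold for *pgph-1*, 38.1-fold for *fbxa-30* and 25.1-fold for *sri-70*. *pgph-1* and *pgph-2* belong to a family of phosphoglycolate phosphatase homologs, *fbxa-30* to the F-box A genes, *sri-70* to the chemoreceptor genes and *spp-27* to the saposin-like genes. *F08G2.5* was the most abundant of these 10 genes, with 0, 1.99, 2.40 and 3.96 CPM at 36 h and 596, 568, 599 and 499.7 CPM at 132 h (log2 change of 7.59 ± 0.47, SE, adjusted p = 7.5e-18). The groups did not overlap in these 12 genes, which the rule that chose them required. The annotated span of *fat-5* overlaps *twk-42* and that of *spp-27* overlaps *twk-10*, and as the strand setting of the counting is not given, reads of overlapping genes may be counted on either.

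The 12 largest falls were in genes of mixed or unknown function. *asp-1*, which encodes an aspartyl protease of the gut (chromosome V, 19049562 to 19050752), had 15678, 16155, 14261 and 12649 CPM at 36 h, where it was among the 5 most abundant genes, and 183, 429, 369 and 157 CPM at 132 h. Its mean level was 51.7-fold lower, and the fitted log2 change was −6.05 ± 0.43 (SE, adjusted p = 5.4e-16). The saposin-like gene *spp-8* had 1154, 462, 984 and 827 CPM and then 8.96, 19.4, 10.9 and 31.9 CPM (log2 change of −6.04 ± 0.40, SE, adjusted p = 6.1e-17). In both genes every 132 h library was far below every 36 h library, where the lack of overlap was a condition of their choice.

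The remaining genes among the 12 largest falls were *fbxa-185*, *C32H11.4*, *asm-3*, *B0035.13*, *K12H4.7*, *marc-2*, *chil-23*, *try-3*, *ins-35* and *spp-3*, with fitted log2 changes from −8.06 to −5.78. *asm-3* encodes an acid sphingomyelinase, *chil-23* a chitinase-like protein, *try-3* a trypsin-like protease and *ins-35* an insulin-like peptide. *K12H4.7* had the highest level of these 10 genes, with 426, 179, 303 and 293 CPM at 36 h and 3.26, 4.85, 6.27 and 6.03 CPM at 132 h. *fbxa-185* had 2 counts in all at 132 h, so that its level was 224 times higher at 36 h, with a 95% interval from 61.7 to 1853. The span of *K12H4.7* overlaps *K12H4.2*, that of *marc-2* overlaps *rsp-7* and that of *try-3* overlaps *best-9*.

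**Figure D3:**
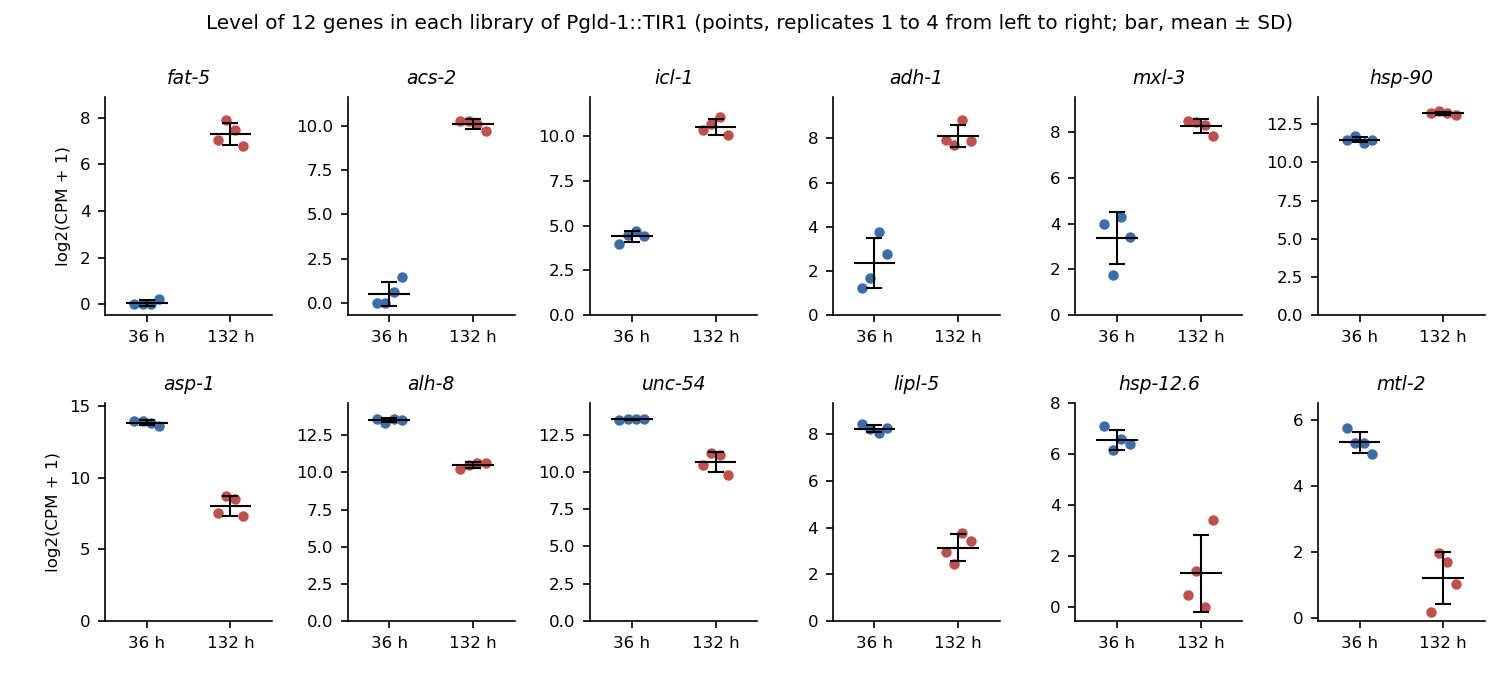
Level of 12 genes as log2(CPM + 1) (y axis) in the 4 libraries at 36 h (blue) and the 4 at 132 h with ethanol (red), with replicates 1 to 4 from left to right in each group and mean ± SD as a bar. Most of these genes were chosen under a rule that required no overlap of the groups. The spread within a group was widest in genes near 0, such as *hsp-12.6* at 132 h.

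Genes of fat and two-carbon metabolism were among those that rose. *icl-1*, which encodes the bifunctional enzyme of the glyoxylate shunt that lets larvae turn fat into sugar (chromosome V, 724332 to 728004), had 14.9, 20.8, 25.4 and 20.6 CPM at 36 h and 1285, 1637, 2170.0 and 1050.0 CPM at 132 h. The level of *icl-1* was 75.1 times higher, with a log2 change of 5.72 ± 0.34 (SE, adjusted p = 2.0e-18). Of the 53 tested genes of acyl-CoA dehydrogenases, synthetases and oxidases, 18 rose and 10 fell, with a median of 0.25. In this list *cpt-3*, for a carnitine palmitoyl transferase, rose by 4.75 ± 0.85 and *ech-7*, for an enoyl-CoA hydratase, fell by 2.35 ± 0.24 on the log2 scale. Under spike-in scaling 19 rose and 2 fell.

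Among the lipases, desaturases and elongases, 4 of 27 rose and 10 fell, with a median of −0.34 that turned to 0.28 under spike-in scaling and 0.01 without the 132 h library of replicate 4. *lipl-5*, for a lysosomal acid lipase known to respond to fasting, had 343, 297, 261 and 308 CPM at 36 h and 6.66, 4.46, 12.7 and 9.73 CPM at 132 h, a log2 change of −5.60 ± 0.32 (SE, adjusted p = 4.2e-19). *lipl-2*, of the same family, fell by 5.43 ± 0.46, while the elongase gene *elo-6* rose by 2.71 ± 0.32. *fat-2*, for the Δ12 desaturase, was the most abundant gene of this list and was not called, with 1268 to 2248 CPM at 132 h and 1270.5 to 1887 CPM at 36 h.

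Of the 15 genes of the glyoxylate shunt, trehalose and glycogen, 4 rose and 6 fell (median of 0.07). The trehalase genes moved apart. *tre-2* rose by 2.48 ± 0.19, while *tre-5* fell by 4.39 ± 0.32 and *tre-3* by 2.69 ± 0.31. In glycolysis and gluconeogenesis, 6 of 23 genes rose and 10 fell, with a median of −0.27 that became 0.32 under spike-in scaling. The lactate dehydrogenase gene *ldh-1* and *fbp-1*, for the fructose-bisphosphatase of gluconeogenesis, rose by 1.76 ± 0.17 and 1.04 ± 0.22. *aldo-2*, for an aldolase and the most abundant gene of the pathway at 36 h, had 2515 to 2880.5 CPM at 36 h and 502 to 710.4 CPM at 132 h and fell by 2.59 ± 0.18.

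The alcohol and aldehyde dehydrogenase genes mostly fell, 9 of 15, and 1 rose. The gene that rose was *adh-1*, also known as sodh-1, for an alcohol dehydrogenase that oxidizes ethanol in worms (chromosome V, 11888248 to 11889650). It had 1.37, 2.23, 12.64 and 5.75 CPM at 36 h and 244, 209, 459 and 236 CPM at 132 h, a log2 change of 5.12 ± 0.54 (SE, adjusted p = 6.8e-11). Its annotated span overlaps *sodh-2*, and only the 132 h flasks held ethanol. *alh-8*, for an aldehyde dehydrogenase, was among the 5 most abundant genes at 36 h, with 12219.5, 10478, 12601 and 11965 CPM, and had 1217, 1422, 1565 and 1609 CPM at 132 h. The fall of *alh-8* by 3.45 ± 0.19 also held under spike-in scaling (fell by 3.04), where 3 of the 15 genes fell.

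Transcripts of the respiratory chain were lower relative to other genes. Of the 42 nuclear genes of the respiratory chain, 29 fell and 1 rose (median of −0.90), and 9 of the 12 genes of the mitochondrial genome fell (median of −0.82). *nuo-1*, for a subunit of complex I, had 397 to 433 CPM at 36 h and 147 to 214 CPM at 132 h and fell by 1.75 ± 0.11, and *isp-1*, for the Rieske protein of complex III, fell by 1.72 ± 0.14. Under spike-in scaling the 2 medians were −0.32 and −0.25, with 5 and 0 genes lower and 2 and 0 genes higher.

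Genes of the gut fell most as a list. Of 16 tested, 11 fell and 2 rose, with a median of −1.79, and their summed level was 19866 to 24466 CPM at 36 h and 1707 to 2088 CPM at 132 h. Besides *asp-1*, the sum held *asp-3*, for a cathepsin D-like protease, which went from a mean of 4007 to 201 CPM, *ifb-2*, for an intermediate filament of the gut lining (2035 to 173 CPM), and *vha-6*, for the proton pump of the gut surface (732 to 128 CPM). The metallothionein gene *mtl-2* had 52.5, 37.97, 38.01 and 30.3 CPM at 36 h and 0.136, 2.88, 2.21 and 1.02 CPM at 132 h. The 2 genes that rose were *elt-2*, for the GATA factor that specifies the gut (0.96 ± 0.21), and *act-5*, for the actin of the microvilli. *act-5* had 63.9, 103, 85.2 and 73.9 CPM and then 821, 580.3, 411 and 627 CPM, a log2 change of 2.41 ± 0.33 (SE, adjusted p = 6.5e-08). Under spike-in scaling 9 genes were lower and 2 higher, with a median of −1.35.

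Body wall muscle genes fell in 12 of 22 cases and rose in 4, with a median of −0.51. *unc-54*, for the major myosin heavy chain of the muscle (chromosome I, 14855901 to 14863482), had 11397, 12107, 12088 and 12031 CPM at 36 h and 1442, 2489, 2259 and 879.9 CPM at 132 h. Its log2 change was −3.15 ± 0.27 (SE, adjusted p = 1.9e-13), and *mlc-2*, for a myosin light chain, fell by 2.29 ± 0.29. *hlh-1*, for the muscle regulator of the MyoD family, and *pat-3*, for an integrin of the attachment sites, rose by 1.43 ± 0.39 and 1.30 ± 0.13. The call of *hlh-1* was lost without the 132 h library of replicate 4 (0.93, adjusted p = 0.10). It held when W1, the spike-in covariate of the fit, was left out together with that library. Under spike-in scaling the list median was −0.01, with 3 genes lower and 4 higher. The pharyngeal muscle genes varied widely within a group, from 574 to 7017 CPM in sum at 36 h and from 2035 to 4261 CPM at 132 h. Of the 8 only *pha-4*, the organ selector gene of the pharynx, was called (0.79 ± 0.23). The call of *pha-4* was lost without the 132 h library of replicate 4 (0.39, adjusted p = 0.26) and held when W1 was left out as well.

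Genes of neurons were lower relative to other genes, with 10 of 22 neuronal genes and 41 of 98 neuropeptide genes called lower. *egl-3*, for the convertase that cuts neuropeptide precursors, was the most abundant neuronal gene and fell by 0.71 ± 0.17, and *ida-1* fell by 1.13 ± 0.17. The neuropeptide gene *nlp-28* had 26.3 to 28.5 CPM at 36 h and 2.87 to 12.32 CPM at 132 h. The calls in these lists depended on the scaling and on 1 library. Under spike-in scaling 0 neuronal and 11 neuropeptide genes were called lower. The neuronal median went from −0.33 to 0.14, while that of all tested genes went from −0.01 to 0.46, so the list stayed below the typical gene. Without the 132 h library of replicate 4, 8 neuronal and 21 neuropeptide genes were lower in the main fit.

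The cytosolic ribosomal protein genes moved together, with 71 of 81 lower and 2 higher (median of −0.56). Their summed level was 150155 to 172090 CPM at 36 h and 129130 to 159673 CPM at 132 h, so the groups overlapped on that scale. *rpl-4*, among the most abundant genes at 132 h, had 7533 to 8323 CPM and 7040.1 to 7943 CPM and a log2 change of −0.52 ± 0.13 (SE, adjusted p = 0.0011). Its call was lost without the 132 h library of replicate 4 (adjusted p = 0.064) and held when W1 was left out as well. *rpl-24.2* fell by 1.40 ± 0.16 and *rpl-11.1* rose by 0.91 ± 0.17. Without that library 33 of the 81 genes were lower in the fit with W1. Under spike-in scaling 1 was lower and 2 were higher, with a median of −0.03, and *rpl-4* was not called (−0.03, adjusted p = 0.96).

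The translation elongation factors did not all move together. *eef-1A.1* was the most abundant gene at both times, with 22067 to 25516 CPM at 36 h and 19931 to 22801 CPM at 132 h, and had a log2 change of −0.58 ± 0.14 (SE, adjusted p = 7.6e-04) that was not called under spike-in scaling (−0.07, adjusted p = 0.91). *eef-1A.2*, which encodes a second copy of the same factor, had 2211 to 2354 CPM at 36 h and 6402 to 8972 CPM at 132 h and rose by 1.30 ± 0.12. Per kb of exon, the mean level of *eef-1A.2* was 1193 CPM at 36 h and 3988 CPM at 132 h, against 15607 and 14104 CPM of *eef-1A.1*. *eef-2* was second in level and was not called (−0.31 ± 0.14, adjusted p = 0.072).

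Most genes of the proteasome, which degrades tagged proteins, rose. Of the 33 proteasome subunit genes, 25 rose and 1 fell, with a median of 0.83, and the summed level was 1908 to 2047 CPM at 36 h and 3894 to 4829 CPM at 132 h. *pbs-2*, for a β subunit of the core, had 41.3, 59.8, 64.2 and 60.9 CPM and then 325, 302, 237 and 411 CPM and rose by 2.06 ± 0.19. Of 20 heat shock genes, 8 rose and 2 fell. *hsp-90*, also known as daf-21 (chromosome V, 14684918 to 14688545), had 2862, 3392, 2515 and 2901 CPM at 36 h and 9712, 10380.2, 9629.6 and 8773 CPM at 132 h, where only *eef-1A.1* and *eef-2* were higher in level, a log2 change of 1.30 ± 0.15 (SE, adjusted p = 1.2e-09). The 2 genes that fell encode small heat shock proteins. *hsp-12.6*, a target of DAF-16, had 134, 69.9, 94.9 and 83.6 CPM and then 0.407, 1.70, 0 and 9.64 CPM and fell by 5.61 ± 0.54, and *hsp-12.3* fell by 3.47 ± 0.65. The small heat shock genes of the hsp-16 group, which exist as near-identical copies whose counts are uncertain, were not called.

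In the unfolded protein responses of the endoplasmic reticulum and mitochondria, 9 of 16 genes rose and 4 fell (median of 0.57). *hsp-4*, for the inducible BiP chaperone, had 34.4, 44.05, 25.9 and 36.8 CPM and then 193, 128, 115 and 341 CPM, and *xbp-1*, for the transcription factor of this response, rose by 1.18 ± 0.11. *crt-1*, for calreticulin, and *hsp-6*, for the mitochondrial Hsp70, fell by 1.60 ± 0.17 and 1.61 ± 0.13, so that the members moved in both directions. In the lists of redox defence genes, 2 of 19 rose and 7 fell (median of −0.24), and under spike-in scaling 3 rose and 2 fell (median of 0.30). *prdx-2*, for the main peroxiredoxin, had 598 to 711 CPM at 36 h and 284 to 336 CPM at 132 h and fell by 1.48 ± 0.18.

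The genes of RNA polymerase II rose as a list. Of 11 tested, 8 rose and 1 fell, with a median of 1.01 (1.22 under spike-in scaling). *ama-1*, for the large subunit, which is untagged in this strain, had 171, 295, 263 and 258 CPM at 36 h and 478, 521, 509 and 756 CPM at 132 h, a log2 change of 0.77 ± 0.21 (SE, adjusted p = 0.0029). *rpb-11* and *rpb-5* rose by 1.78 ± 0.23 and 1.52 ± 0.17. Among 20 genes of mRNA decay and the poly-A tail, 7 rose and 5 fell (median of 0.23), with 7 and 0 under spike-in scaling (median of 0.55) and 6 and 3 without the 132 h library of replicate 4. The nuclear exonuclease gene *xrn-2* rose by 1.41 ± 0.18. The poly-A binding protein gene *pab-1*, the most abundant of them, was not called (−0.03 ± 0.13).

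Genes of germ granules and primordial germ cells rose in 13 of 44 cases and fell in 4, with a median of 0.68, and under spike-in scaling 13 rose and 0 fell (median of 1.01). Without the 132 h library of replicate 4, 9 rose and 4 fell in the main fit (median of 0.53). Under spike-in scaling without it, 23 rose and 0 fell (median of 1.21, against 0.76 of all tested genes). *glh-1*, for a Vasa-like helicase of the granules, was at 12.04 to 28.5 CPM at 36 h and 92.8 to 143 CPM at 132 h, a log2 change of 2.01 (adjusted p = 5.0e-06). *cpb-3*, for a cytoplasmic polyadenylation factor, rose by 3.60 ± 0.60. *gld-1*, for a translational repressor of the germ line, had 7.95, 7.32, 2.33 and 4.05 CPM and then 40.1, 43.5, 29.1 and 66.1 CPM and rose by 2.73 ± 0.48 (SE, adjusted p = 6.7e-06). The transgene of this strain carries the *gld-1* promoter and 3′UTR, so its reads can be counted on *gld-1*. The log2 change of *gld-1* was 2.45 in *Peft-3::TIR1*, which lacks these parts. *gld-2* and *ife-1* fell by 1.15 ± 0.13 and 1.06 ± 0.14, and neither fall was called under spike-in scaling (adjusted p of 0.086 and 0.18).

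Genes of oocytes and eggshells rose in 6 of 13 cases and fell in 1 (median of 1.1), and 4 of the 6 vitellogenin genes, which encode yolk proteins that the adult gut makes, rose (median of 3.84). The vitellogenin genes summed to 6.72, 19.7, 15.3 and 7.64 CPM at 36 h and 92.1, 38.8, 51.2 and 267 CPM at 132 h. The highest value was in replicate 4, the library with the high spike-in share and the highest sum of sperm genes. Without it 0 vitellogenin genes and 3 oocyte and eggshell genes were called higher in edgeR's quasi-likelihood test, and the log2 change of *vit-2* went from 3.98 (adjusted p = 0.0097) to 2.1 (adjusted p = 0.25). The part of adult material in these rises was not tested. The 3 other strains did not share the vitellogenin rise over the same interval, and 0 of these genes were called in each. The vitellogenin medians were −1.17 in *Peft-3::TIR1*, and 0.40 in LRB387 and −2.096 in LRB389, which have degron-tagged AMA-1. Of the oocyte and eggshell genes, 4 rose and 2 fell in *Peft-3::TIR1*, 1 and 2 in LRB387, and 1 and 1 in LRB389. *oma-1*, for an oocyte maturation factor, had 0.411 to 13.4 CPM at 36 h and 14.2 to 62.0 CPM at 132 h.

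Genes of the cell cycle rose in 9 of 28 cases and fell in 2 (median of 0.40). The E2F gene *efl-1* and *rnr-1*, for the large subunit of ribonucleotide reductase, rose by 1.37 ± 0.26 and 1.21 ± 0.35. *cki-1*, for the inhibitor that holds arrested larvae out of the cycle, was at 50.5 to 64.1 CPM at 36 h and 70.1 to 148 CPM at 132 h and rose by 0.56 ± 0.20 (SE, adjusted p = 0.025), a call lost when any of 4 of the libraries was left out, among them the 132 h library of replicate 4 (0.31, adjusted p = 0.35). *lin-35*, for the Rb protein of worms, rose by 0.76 ± 0.17. Without that library 5 cell cycle genes were higher and 1 was lower.

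In insulin-like signaling, 6 of 11 genes fell (median of −0.60). The receptor gene *daf-2* had 408, 518, 540.1 and 527 CPM and then 248, 312, 325 and 304 CPM and fell by 1.2 ± 0.18, and its adaptor gene *ist-1* fell by 1.60 ± 0.21. *daf-16*, for the FOXO factor that the pathway restrains, had 334, 374, 335 and 384.8 CPM and then 258, 296, 269 and 253 CPM and fell by 0.89 ± 0.14 (SE, adjusted p = 9.6e-07). Under spike-in scaling 1 of these genes was lower, and neither *daf-2* (−0.76, adjusted p = 0.11) nor *daf-16* (−0.37, adjusted p = 0.48) was called.

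Of 31 tested insulin-like peptide genes, 4 rose (12.9%) and 7 fell (22.6%), not far from the 18.8% and 19.4% of all tested genes (median of −0.30). Under spike-in scaling 5 rose and 3 fell (median of 0.21). *ins-17* was the most abundant, with 130 to 174 CPM at 36 h and 62.5 to 107 CPM at 132 h, and fell by 1.38 ± 0.18. *ins-35* had 4.94, 1.99, 9.08 and 6.20 CPM and then 0.407, 0, 0.553 and 0 CPM. Of 15 DAF-16 targets, 3 rose and 6 fell, with a median of −0.06 that became 0.06 under spike-in scaling, where 4 rose and 4 fell. *fat-5*, *icl-1* and *gpdh-1* were those that rose, and *hsp-12.6*, *dod-24* and *dod-3* were among those that fell. The list was not split into genes that DAF-16 raises and genes that it lowers, so these counts do not measure its activity.

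Among 26 autophagy and lysosome genes, 6 rose and 12 fell, with a median of −0.25 that became 0.19 under spike-in scaling, where 4 rose and 2 fell. *mxl-3*, for a transcription factor known to repress lysosomal lipase genes in fed worms, had 14.9, 2.36, 18.5 and 9.71 CPM at 36 h and 363, 344, 319 and 229 CPM at 132 h and rose by 4.26 ± 0.34 (SE, adjusted p = 1.8e-14). *hlh-30*, for the TFEB factor that acts on the same genes, was not called (−0.20 ± 0.14, adjusted p = 0.30). *sqst-1*, for the autophagy receptor p62, rose by 0.82 ± 0.16, while *atg-16.2* and *epg-2* fell by 1.66 ± 0.15 and 1.51 ± 0.15. Without the 132 h library of replicate 4, 2 genes of the list were higher and 10 lower.

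Large gene families of the larva had members called in both directions. Of 128 C-type lectin genes, 37 fell and 7 rose (median of −0.97), and under spike-in scaling 20 fell and 11 rose (median of −0.53). *clec-63*, the most abundant, had 1952, 1405, 1981 and 1833 CPM and then 403, 430.5, 421 and 313 CPM, and *clec-47* rose by 7.04 ± 0.99. Of 225 nuclear hormone receptor genes, 67 fell and 28 rose (median of −0.36), against 23 and 29 under spike-in scaling (median of 0.14) and 55 and 17 without the 132 h library of replicate 4. The most abundant, *nhr-88*, was lower with a log2 change of −2.44 ± 0.16, and *nhr-58* was higher by 3.71 ± 0.31. Of 170 detoxification genes, 27 rose (15.9%) and 34 fell (20.0%), close to the 18.8% and 19.4% of all tested genes, with a median of −0.21. Under spike-in scaling 34 rose and 17 fell, and the median of 0.31 was still below the 0.46 of all tested genes. The glucuronosyltransferase genes *ugt-66* and *ugt-29* rose by 5.65 ± 0.60 and 4.90 ± 0.45, and the cytochrome P450 gene *cyp-37B1* and the glutathione transferase gene *gst-20* had log2 changes of −5.36 ± 0.52 and −5.02 ± 0.30.

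Cuticle genes gave shares near or below those of all genes. Of 125 collagen genes, 16 rose and 19 fell (median of 0.16), with 20 and 9 under spike-in scaling (median of 0.59) and a median of −0.21 without the 132 h library of replicate 4. *col-39* had 799 to 1139 CPM at 36 h and 32.3 to 78.8 CPM at 132 h and fell by 4.54 ± 0.30. Of 15 hypodermal genes, 3 rose, with *noah-1*, for a matrix protein of the cuticle, higher by 1.48 ± 0.39, and of 34 hedgehog-related genes 4 rose and 3 fell, with a median of −0.25 that became 0.26 under spike-in scaling, where 4 rose and 1 fell.

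**Figure D4:**
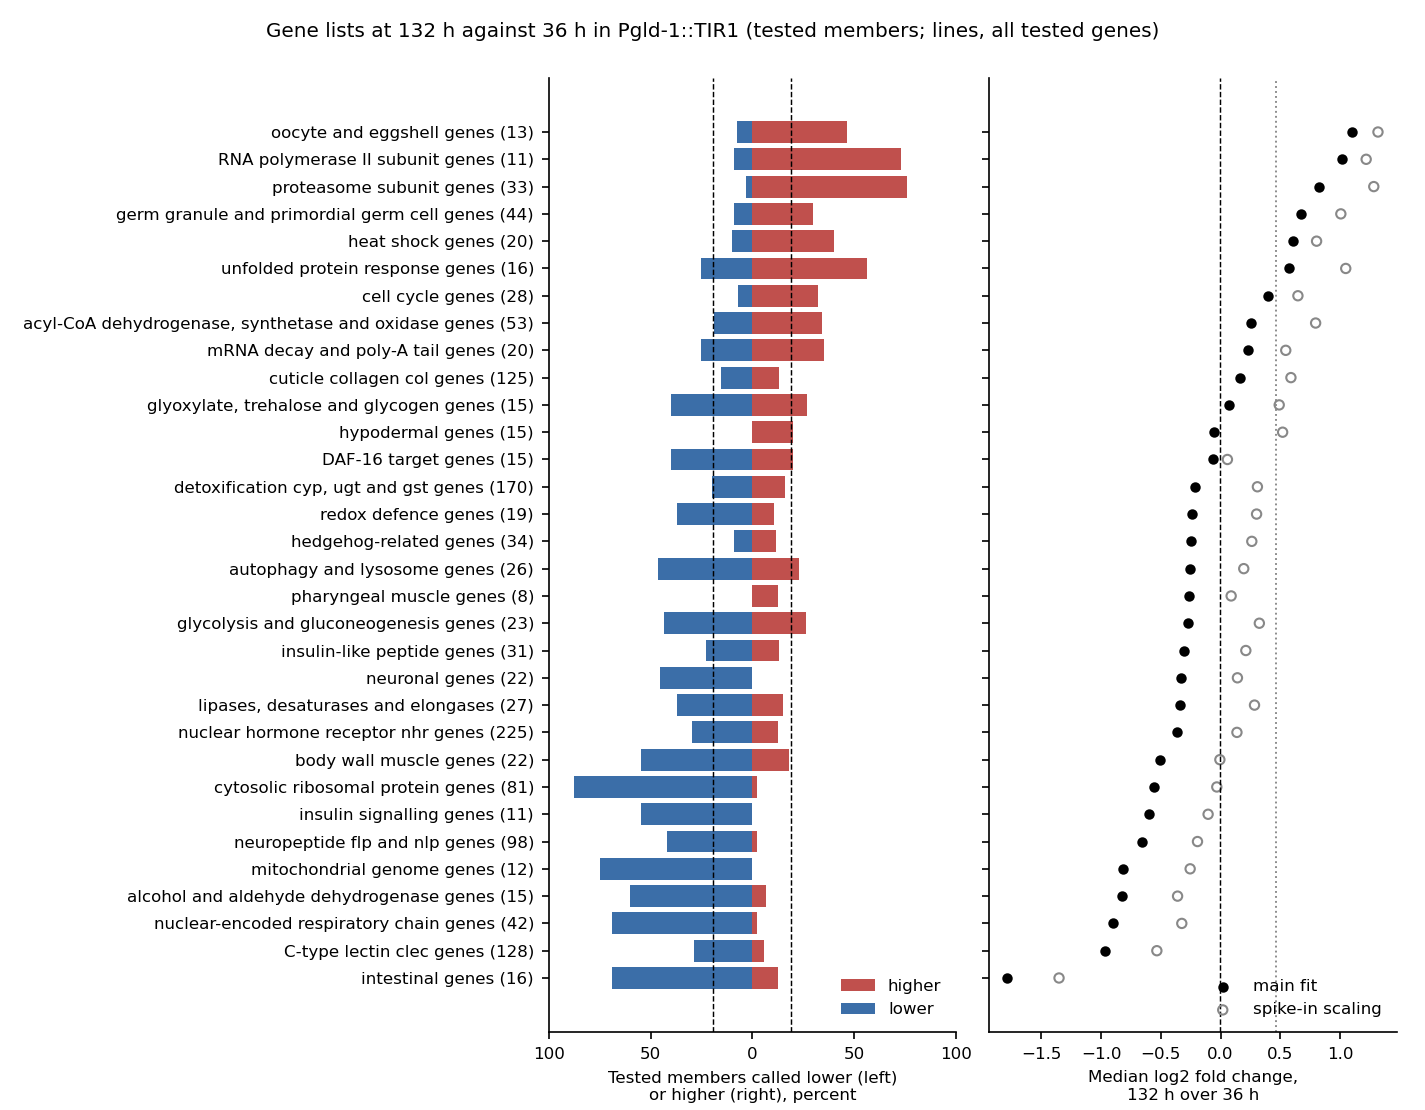
Left, percent of the tested members of each gene list called lower (blue, to the left) or higher (red, to the right) at 132 h, with dashed lines at the shares over all tested genes (19.4% and 18.8%); right, median log2 fold change of each list in the main fit (black) and under spike-in scaling (open), with lines at the medians of all genes (−0.01 and 0.46). The number of tested members is in parentheses, and lists with fewer than 8 tested members are not drawn. The proteasome list has the largest share called higher (25 of 33), the ribosomal protein list the largest share called lower (71 of 81), and the gut list the lowest median (−1.79).

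Called genes were not spread evenly over the chromosomes. On the X chromosome 10.7% of 2261 tested genes were higher and 23.7% lower (median of −0.28), while on the other 5 nuclear chromosomes 17.3% to 23.6% were higher and 17.6% to 19.3% lower, with medians from −0.05 to 0.10. Chromosome III had the largest share of genes called higher.

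The same interval was sampled with separate libraries in 3 other strains, which were fitted together with these. Of the 2926 genes called higher in *Pgld-1::TIR1*, 2376 were also called higher by the *Peft-3::TIR1* libraries (81.2% of the first list and 74.4% of the second). The number was 2175 with LRB387, the *Pgld-1::TIR1; ama-1::AID* strain (74.3% and 82.0%), and 1937 with LRB389, the *Peft-3::TIR1; ama-1::AID* strain (66.2% and 82.2%). For the 3023 genes called lower the numbers were 2629, 2284 and 2063. At most 1 gene per strain and direction was called the opposite way. The 12 largest rises and the 12 largest falls were each called in the same direction in all 3 strains. Fewer of the 44 germ granule and primordial germ cell genes were called higher in these strains than in *Pgld-1::TIR1*. LRB387 had 8 higher and 5 lower (median of 0.31), *Peft-3::TIR1* had 11 and 4 (0.61), and LRB389 had 5 and 4 (0.42).

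Tests of the difference itself gave few genes after adjustment. At an unadjusted p under 0.05, 777 of the tested genes would be expected by chance in each of the following tests. The change with time differed from that in LRB387 in 0 genes (0%) by edgeR's quasi-likelihood test, with 633 genes at an unadjusted p under 0.05, and DESeq2 called 16. Against LRB389 it differed in 0 genes (0%), with 956 at an unadjusted p under 0.05 and 26 by DESeq2. Against *Peft-3::TIR1*, which drives TIR1 from the eft-3 promoter in the soma, it differed in 9 genes (0.0579%), with 1640 at an unadjusted p under 0.05 and 207 by DESeq2. These are *ZK829.7*, *C45E1.4*, *ech-7*, *tbb-1*, *wht-3*, *tbb-2*, *T24H10.1*, *rpb-8* and *eif-1.A*. The numbers depended on single libraries, and without 1 library of either group in turn, 2 to 13 genes differed from *Peft-3::TIR1*.

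*ZK829.7* had the smallest adjusted p of these (8.6e-10). Its level was 132 ± 12.13 CPM (SD, n = 4) at 36 h and 293 ± 5.61 CPM at 132 h in *Pgld-1::TIR1*, against 27.7 ± 6.63 CPM and 212 ± 20.9 CPM in *Peft-3::TIR1*, so the change with time was 0.69 and 2.54 on the log2 scale, a difference of −1.85. The other 2 strains had 127 CPM each at 36 h. The levels at 36 h were thus lower in *Peft-3::TIR1* than in every library of the 3 other strains. *tbb-1* and *tbb-2*, which encode β-tubulins, rose by 1.22 ± 0.12 and 0.89 ± 0.11 in *Pgld-1::TIR1* and by 2.03 and 1.68 in *Peft-3::TIR1*. *C45E1.4* fell by 2.45 ± 0.18 in *Pgld-1::TIR1* and by 3.87 in *Peft-3::TIR1*.

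**Figure D5:**
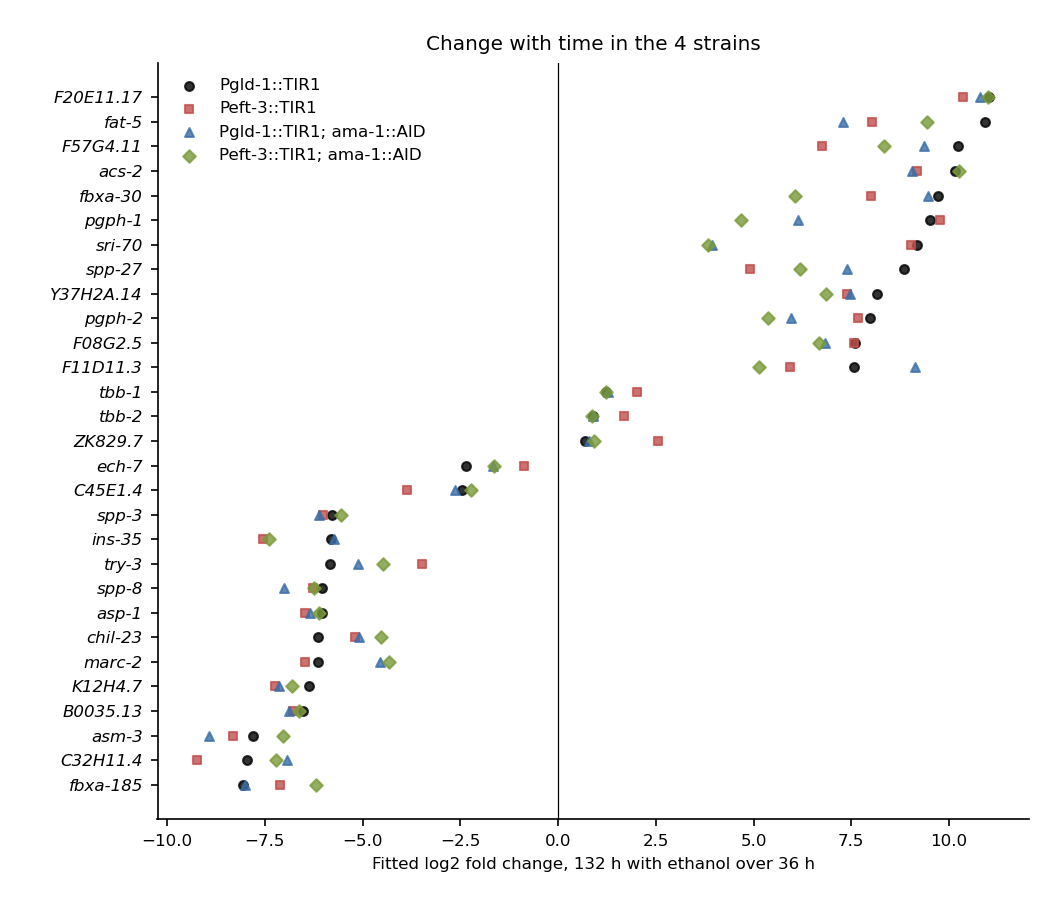
Fitted log2 fold change at 132 h with ethanol over 36 h (x axis) of the 12 largest rises and 12 largest falls in *Pgld-1::TIR1* and of 5 genes whose change differed from *Peft-3::TIR1* (y axis), with 1 marker for each strain. The 24 genes lie on the same side of 0 in the 4 strains, and *ZK829.7* lies at 2.54 in *Peft-3::TIR1* and between 0.69 and 0.91 in the others.

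The 4 libraries of *Pgld-1::TIR1* at 132 h with auxin share the 36 h libraries with this comparison, so they give no separate test of it. Against the same 36 h libraries, the log2 change was 9.82 for *acs-2*, 11.35 for *fat-5*, 5.55 for *icl-1*, −6.34 for *asp-1*, −3.43 for *alh-8* and −2.96 for *unc-54*, and auxin was dissolved in ethanol in those flasks.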

How the data were processed

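The strand setting of the counting is not given in the sources used here. The files hold, for each library, raw counts of read pairs on 46911 genes and 92 spike-ins, which the authors deposited after alignment with Bowtie 1.2.2 and counting with HTSeq 0.11.2. RNA was selected by its poly-A tail and amplified by a number of PCR cycles that differed between batches the labels do not give, and its effect was not tested. Rows of pairs assigned to no gene were left out, and 38.3% to 42.1% of the pairs of these 8 libraries were not aligned. Of the gene IDs, 46857 were matched to the WBcel235 annotation.

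Genes that code for proteins and had over 10 counts in 4 or more libraries were kept, scaled to the upper quartile and fitted over the libraries of the series with 1 factor of unwanted variation (W1) from 62 spike-ins as a covariate, following the authors' design, with edgeR 4.0.16 in R 4.3.3. The quasi-likelihood test took the place of the authors' likelihood ratio test, and p-values were adjusted by Benjamini-Hochberg over 15549 genes. W1 ranged from −0.052 to 0.127 at 36 h and from −0.163 to −0.085 in 3 of the 132 h libraries, below every 36 h library, with 0.311 in replicate 4. The statistics were tested on simulated data. Levels were computed with pandas 2.3.3, counting intervals with scipy 1.17.1 and figures with matplotlib 3.10.9 in Python 3.11.15. The exact permutation tests went through every split of the libraries in the same version of Python. Alternatives were TMM, DESeq2 1.42.0, spike-in scaling, no W1, the likelihood ratio test, other filters, all biotypes, the 8 libraries alone, the replicate number as a block, a threshold of 0.01 and leaving out each library. Libraries of the same number correlated by 0.03 on average in their deviations from the group means (−0.02 to 0.11, 4 pairs), so the numbers were not shown to pair them.

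Named genes were the 12 largest called rises and falls whose CPM did not overlap and whose mean count reached 50 at either time, the 2 largest of each per gene list, the most abundant member of each list, the 5 most abundant genes of each group, genes tied to the study and, per strain comparison, the 5 genes with the smallest adjusted p. *asp-3*, *ifb-2*, *vha-6*, *glh-1*, *gpdh-1* and *dod-3* fall outside this rule and were chosen after their values were seen. The comparison and the gene lists were chosen with earlier results of these data known. A search of promoters for motifs was not run, as no sequence was used here.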

Additional observations from a re-analysis of the deposited data

Results flagged for a closer look

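In 7 groups of 4 libraries, 1 library stood far from the other 3. Chance sets 1 library apart in about 1 in 20 such groups, and 88 gene groups were looked at. The 132 h library of replicate 4 had a spike-in share of 6.41%, a *pgph-1* level of 3.24 CPM (14.8 to 16.98 CPM in the other 3), a *sri-70* level of 13.9 CPM, an *ama-1* level of 756 CPM and a *C45E1.4* level of 26.2 CPM. The 132 h library of replicate 3 had 459 CPM of *adh-1*, and the 36 h library of replicate 1 had 11397 CPM of *unc-54*, the lowest of its group.

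The change with time in *Pgld-1::TIR1* minus that in *Peft-3::TIR1* differed from 0 in 9 genes by edgeR's quasi-likelihood test. The difference was −1.85 for *ZK829.7*, 1.42 for *C45E1.4*, −1.48 for *ech-7*, −0.81 for *tbb-1*, −5.20 for *wht-3*, −0.79 for *tbb-2*, −0.96 for *T24H10.1*, −1.26 for *rpb-8* and −0.94 for *eif-1.A*. The cause of these differences was not tested.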

How the results depend on the processing

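Across the settings tried, no gene called in the main fit was called in the opposite direction. Genes higher and lower numbered 2926 and 3023 in the main fit, and TMM, DESeq2, the likelihood ratio test, other filters, all biotypes, no W1 and the 8 libraries alone moved neither count by more than 1.5 times. With the replicate number as a block there were 2973 and 3068, so pairing changed little. Spike-in scaling gave 880 genes lower, and, in an alternative chosen after seeing the data, 4607 higher and 624 lower without the 132 h library of replicate 4. Leaving out each library gave 2304 to 2838 genes higher and 2299 to 2924 lower, with the lowest counts without that library. Among the remaining libraries, the W1 of the main fit was lower in every 132 h library than in every 36 h library. With W1 left out as well, another alternative chosen after seeing the data, 2655 genes were higher and 2545 lower.

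The 9 genes whose change differed from *Peft-3::TIR1* became 14 with TMM, 207 with DESeq2, 39 with the likelihood ratio test, 3 with all biotypes, 2 without W1, 2 without W1 and with the replicate block, 1 at a threshold of 0.01, 0 under spike-in scaling, 0 under it without the 132 h library of replicate 4, and 2 to 13 with each library left out. For *Pgld-1::TIR1; ama-1::AID* the 0 genes became 16 with DESeq2, and for *Peft-3::TIR1; ama-1::AID* they became 26 with DESeq2 and 7 with the likelihood ratio test. The cause was not tested.

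The spike-in difference of 0.677 percentage points ranged from −0.47, without the 132 h library of replicate 4 (exact permutation test, p = 0.343), to 1.11 with each library left out. The ribosomal RNA difference ranged from −5.19 to −3.12 percentage points, and without any 1 of the 132 h libraries (−4.46 to −3.94) 3 against 4 libraries cannot give a p below 0.0571. Under spike-in scaling without the 132 h library of replicate 4, 8 named genes turned positive: *rpl-4* at 0.27, *wrt-5* at 0.15, *lin-26* at 0.83, WBGene00010964 at 0.11, *egl-3* at 0.11, *atp-2* at 0.0059, *mbk-2* at 0.14 and *eef-1A.1* at 0.23. Of the 152 named genes, 42 lost their call in at least 1 setting. Genes with few counts at one time have fold changes that depth limits.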

Other observations

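Some gene classes also stood at one side, and they were chosen after their values were seen, from 153 classes of at least 10 tested genes that share a symbol. They are not separate from the genes above. *asp-1* and *asp-3* are also in the gut list, and *spp-3*, *spp-8* and *spp-27* are among the largest changes. Of 26 nucleoporin genes (npp), 21 were higher, with a median log2 change of 1.16. *npp-9* ranged from 81.7 to 109.9 CPM at 36 h and from 976.9 to 1620.5 CPM at 132 h. Of 13 pre-mRNA splicing genes (prp), 12 were higher and 1 lower, and *prp-8* had a log2 change of 1.25 ± 0.17. Of 11 genes of the Integrator complex (ints), 8 were higher and 2 lower, with *ints-1* among the lower ones (−0.76 ± 0.16).

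Of 36 tested pals genes, some of which are known to respond to intracellular pathogens, 18 were higher and 2 lower (median of 2.19). *pals-6* went from a mean of 0.79 to 47.3 CPM, while *pals-18* and *pals-31* fell by 1.52 and 2.20. Of 14 P-glycoprotein transporter genes (pgp), 9 were higher and 2 lower (median of 2.24). *pgp-5*, *pgp-6*, *pgp-7* and *pgp-8* rose by 5.64, 6.04, 5.91 and 6.10. Of 14 aspartyl protease genes (asp), 8 were lower (median of −3.01), and *asp-6* went from a mean of 9671 to 1524 CPM. Of 24 saposin-like genes (spp), 13 were lower and 3 higher. Without the 132 h library of replicate 4 the medians of these 7 classes kept their sign.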
